A study of Homo sapiens with 40 samples.

Results

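The UGT1A genes encode UDP-glucuronosyltransferases of the endoplasmic reticulum, and the 9 genes with the names UGT1A1, UGT1A3, UGT1A4, UGT1A5, UGT1A6, UGT1A7, UGT1A8, UGT1A9 and UGT1A10 were taken by gene name from the PCB 126 and the glyphosate expression tables. They are 9 of the 43478 gene names above 0 in the PCB 126 table and of 44434 in the glyphosate table. RNA was sequenced in 40 libraries of HepaRG, a human liver line whose differentiated cultures mix hepatocyte-like and biliary-like cells. The question was how a dioxin-like compound and a herbicide, alone and as a formulated product, change the cells, and each of 8 groups had 5 libraries. These were Control, 3 concentrations of PCB 126 (100 pM, then 10 nM, then 1 µM), 3 doses of glyphosate (10 µg/L, then 1 mg/L, then 0.1 g/L) and 1 dose of Roundup, a glyphosate-based product (10 µg/L). PCB 126 belongs to the polychlorinated biphenyls and is a strong ligand of the aryl hydrocarbon receptor (AhR). All groups shared the line and a medium with 2% serum and 1% DMSO, and exposure ran from day 8 to day 14, that is for 6 days. The 5 Control libraries are the same in both tables, so all comparisons with Control share them. Nothing in the labels says whether the 5 libraries of a group came from separate cultures, so p-values measure only the spread between these libraries, which may be technical.

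UGT1A enzymes join glucuronic acid, taken from UDP-glucuronic acid, to bilirubin, bile acids, hormones, drugs and dietary phenols, which makes them more soluble and ready for export into bile or urine. All of them are made from a single locus: each gene has its own promoter and first exon, which is spliced to a common set of later exons, so the enzymes differ in the part that binds the substrate and share the part that binds the cofactor. In liver, UGT1A1 is the enzyme that conjugates bilirubin, and AhR, the pregnane X receptor, the constitutive androstane receptor, NRF2 and hepatocyte factors are known to act on the locus.

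The arrangement of the locus sets what can be told apart in these values. In the GENCODE v44 annotation of GRCh38, all genes lie on the plus strand of chromosome 2 in the order UGT1A8, UGT1A10, UGT1A9, UGT1A7, UGT1A6, UGT1A5, UGT1A4, UGT1A3 and UGT1A1. The first exon of UGT1A8 lies at chr2:233617633-233618562, that of UGT1A9 at chr2:233671898-233672789, that of the longest UGT1A6 form at chr2:233692890-233693865, that of UGT1A3 at chr2:233729042-233729993 and that of UGT1A1 at chr2:233760270-233761151. Exons 2 to 5 are common to all 9 genes, at chr2:233767034-233767165, chr2:233767849-233767936, chr2:233768220-233768439 and chr2:233772262-233773300, and together have 1479 bases. Some transcripts end instead in an alternative last exon of 2085 bases at chr2:233769531-233771615. Of the 20 annotated transcripts with the name of a UGT1A gene, 4 have none of exons 2 to 5. The bases outside these shared exons make up 37.4% of the UGT1A1 transcript ENST00000305208, so most of its length cannot tell UGT1A1 from the other members.

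**Figure D1:**
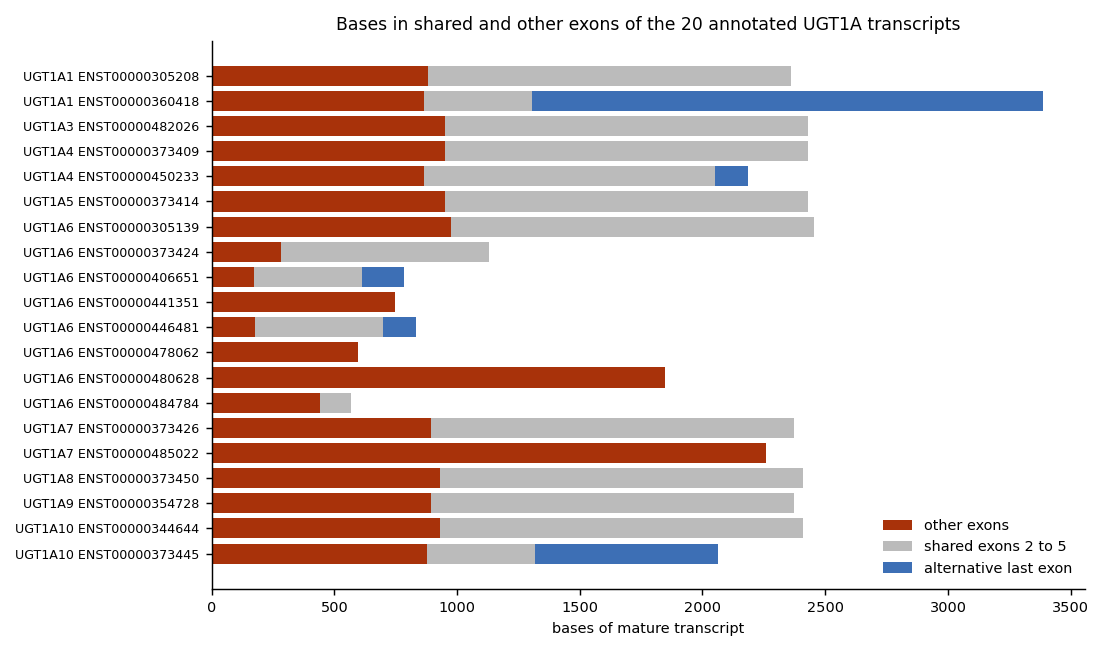
Bases of each annotated UGT1A transcript, 1 horizontal bar per transcript, divided into shared exons 2 to 5 (grey), the alternative last exon and other exons. The full-length transcripts of all 9 genes carry the same 1479 shared bases, and 4 of the 20 transcripts have none.

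The splice junction between the first exon and exon 2 can show which first exon a read came from, where its letters differ between members. In the lines below, the last 20 bases of the first exon are in lower case and the first 20 bases of exon 2, which are chr2:233767034-233767053 in every line, are in capitals.
UGT1A1: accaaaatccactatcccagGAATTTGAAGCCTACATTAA
UGT1A3: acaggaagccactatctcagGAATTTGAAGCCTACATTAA
UGT1A4 and UGT1A5: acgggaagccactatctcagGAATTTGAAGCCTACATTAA
UGT1A6: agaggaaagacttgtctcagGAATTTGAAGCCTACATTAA
UGT1A7: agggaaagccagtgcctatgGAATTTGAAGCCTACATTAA
UGT1A8 and UGT1A10: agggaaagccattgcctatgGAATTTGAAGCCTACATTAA
UGT1A9: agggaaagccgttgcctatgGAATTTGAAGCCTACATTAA
UGT1A4 and UGT1A5 had the same letters here, as did UGT1A8 and UGT1A10. Over the coding part of the first exon, UGT1A3, UGT1A4 and UGT1A5 were 93.2 to 94.1% identical to each other, and UGT1A7, UGT1A8, UGT1A9 and UGT1A10 were 92.1 to 94.0% identical. UGT1A1 was 62.2 to 63.7% identical to UGT1A3, UGT1A4 and UGT1A5. The longest identical runs were 74 to 80 bases within the first of these subgroups and 55 to 138 bases within the other. Values of single members within a subgroup may be uncertain, since their first exons are near-identical, and they were read beside the sum over the locus. How read pairs were divided between these exons was not tested.

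Promoter sequences from RefSeq (GRCh38.p14, from 250 bases before to 50 bases after the start) were matched for 8 of the 9 symbols, with 9 windows because UGT1A6 has starts at 2 places. The AhR/ARNT core GCGTG, or CACGC on the other strand, was searched because PCB 126 acts through this receptor. The windows printed here are those of the member that passed the test, UGT1A1, of UGT1A3, the other member with values above most Control libraries, and of UGT1A6 and UGT1A9, the other abundant members. For UGT1A6 only the window of the upstream start is printed. The abundant form of UGT1A6, ENST00000305139, begins at the main start, whose window is not printed and held no core. Capitals mark the core.
UGT1A1, chr2:233760020-233760319, plus strand: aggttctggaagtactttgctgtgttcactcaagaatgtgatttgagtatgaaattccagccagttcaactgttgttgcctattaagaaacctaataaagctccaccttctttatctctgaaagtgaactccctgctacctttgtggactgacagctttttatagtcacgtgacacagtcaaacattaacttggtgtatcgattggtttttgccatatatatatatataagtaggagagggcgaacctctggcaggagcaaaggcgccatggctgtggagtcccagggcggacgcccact
UGT1A3, chr2:233728792-233729091, plus strand: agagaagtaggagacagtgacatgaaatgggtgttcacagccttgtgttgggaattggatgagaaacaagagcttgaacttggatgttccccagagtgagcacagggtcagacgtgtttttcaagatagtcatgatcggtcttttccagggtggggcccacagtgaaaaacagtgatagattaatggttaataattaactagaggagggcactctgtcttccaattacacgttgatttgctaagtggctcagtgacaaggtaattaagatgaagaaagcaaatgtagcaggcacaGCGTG
UGT1A6, upstream start, chr2:233691452-233691751, plus strand: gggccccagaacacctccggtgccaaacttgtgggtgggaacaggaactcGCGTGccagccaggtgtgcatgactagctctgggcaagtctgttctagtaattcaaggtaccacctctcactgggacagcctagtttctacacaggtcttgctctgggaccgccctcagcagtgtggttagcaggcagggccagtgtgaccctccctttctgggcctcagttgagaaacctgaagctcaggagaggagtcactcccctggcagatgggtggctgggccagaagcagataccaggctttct
UGT1A9, chr2:233671648-233671947, plus strand: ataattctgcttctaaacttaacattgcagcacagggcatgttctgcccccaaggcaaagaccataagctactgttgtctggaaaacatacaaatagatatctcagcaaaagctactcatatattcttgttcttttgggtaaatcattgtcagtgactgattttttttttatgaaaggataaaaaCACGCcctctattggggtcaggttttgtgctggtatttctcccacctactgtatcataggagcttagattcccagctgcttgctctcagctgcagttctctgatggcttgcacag
A core stood in the windows of UGT1A3, UGT1A4, UGT1A7, UGT1A8 and UGT1A9 and of the upstream start of UGT1A6, and none in those of UGT1A1, UGT1A5 and the main start of UGT1A6. The core is a common word: 12832 of 35116 promoter windows of the same length, or 36.5%, held at least 1. In UGT1A3 the core stood at 45 bases after the start, and in UGT1A9 at 65 bases before it.

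Since the UGT1A1 window held no core, the 5000 bases before its start were searched as well, and they held 3, each given with 50 bases on either side and the core in capitals.
UGT1A1, 3303 bases before the start, chr2:233756917-233757021, plus strand: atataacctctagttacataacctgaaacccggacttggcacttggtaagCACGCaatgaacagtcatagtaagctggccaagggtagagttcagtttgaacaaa
UGT1A1, 688 bases before the start, chr2:233759532-233759636, plus strand: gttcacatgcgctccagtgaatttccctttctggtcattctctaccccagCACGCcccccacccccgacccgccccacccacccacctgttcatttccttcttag
UGT1A1, 568 bases before the start, chr2:233759652-233759756, plus strand: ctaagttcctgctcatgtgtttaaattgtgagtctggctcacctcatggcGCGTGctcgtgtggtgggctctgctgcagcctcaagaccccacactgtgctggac
Of 35097 such upstream stretches, 69.9% had as many cores or more, and the median was 4. These matches are a description of the letters and say nothing on binding of the receptor in these cells.

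In the Control libraries the members covered a wide range of levels. The unit throughout is FPKM, which corrects the fragments for transcript length and for the number of fragments mapped in a library, summed over the transcripts of a gene name. Read counts per gene were not used here, so no interval for counting error is given. UGT1A6, which conjugates small phenols, had the highest mean, 95.5 ± 38.3 FPKM (SD, n = 5). UGT1A1 followed at 66.1 ± 29.4 and UGT1A9, which handles many drugs and fatty acids, at 47.5 ± 17.1. A gap followed, and UGT1A4, which attaches glucuronic acid to amines, was at 4.45 ± 3.93. UGT1A5 was at 1.78 ± 2.93, where 1 library at 6.99 stood far above the median of 0.526, and UGT1A3, which acts on bile acids and other carboxylic acids, was at 1.35 ± 0.672. UGT1A7, UGT1A8 and UGT1A10, which are known mainly from the gut and upper digestive tract, had means of 0.896, 0.842 and 0.156. Among neighbours in this order, only UGT1A9 and UGT1A4 had ranges that did not overlap. The gene at the top differed between libraries: over all 40 libraries UGT1A1 was highest in 19, UGT1A6 in 17 and UGT1A9 in 4.

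**Figure D2:**
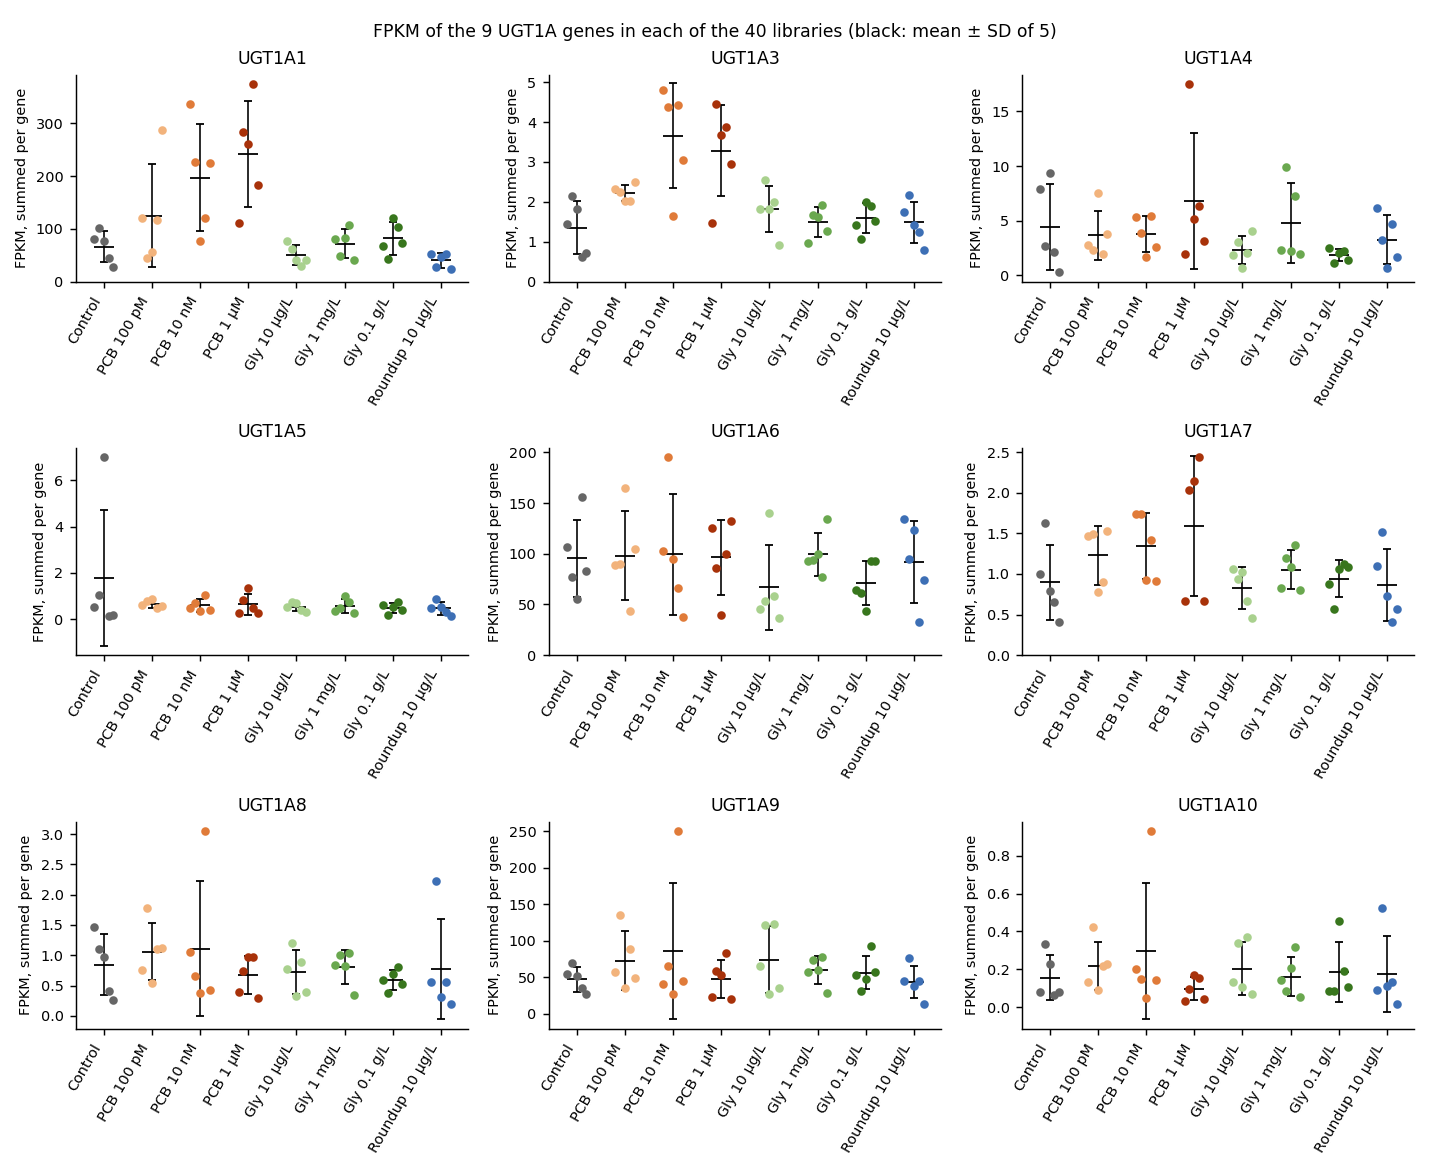
FPKM summed per gene (linear vertical axes, a panel for each of the 9 UGT1A genes) by group, with 1 point per library and black marks for the mean ± SD of 5. In the UGT1A1 panel the 5 points at 1 µM PCB 126, 111 to 375, lie above the 5 Control points, 28.0 to 101, while all herbicide groups overlap Control.

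UGT1A1 rose at 1 µM PCB 126. Its FPKM in the 5 Control libraries were 80.3, 101, 76.6, 44.4 and 28.0. At 100 pM they were 121, 45.2, 56.1, 117 and 287, and the groups overlapped. At 10 nM they were 338, 226, 77.1, 121 and 225, with 1 library inside the Control range. At 1 µM they were 111, 283, 261, 375 and 183, and the lowest of these lay above the highest Control. The mean at 1 µM, 242.6 ± 100.6 (SD, n = 5), was 3.67 times that of Control. In limma on log2(FPKM + 1), a scale that understates the change of low genes, the difference from Control was 0.74 (SE 0.46) for the lowest, 1.52 for the middle and 1.88 for the highest concentration. With Benjamini-Hochberg adjustment over the 9755 genes tested in limma, the adjusted p was 1, 0.338 and 0.0276, so UGT1A1 passed the threshold of 0.05 at 1 µM. The 95% interval at 1 µM was 0.93 to 2.83, and that at 10 nM, 0.57 to 2.47, covered much of the same range. The step from 10 nM to 1 µM was 0.36 (95% interval -0.59 to 1.31) and was not called by limma (adjusted p = 1.00), and the limma F-test over the groups of this table, which called 1.39% of genes, gave an adjusted p of 0.0976.

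The call for UGT1A1 at 1 µM stood close to its threshold. In limma, the adjusted p was 0.0839 without Control replicate 4, 0.0601 without Control replicate 5, and 0.0602, 0.0579 and 0.0709 without replicates 2, 3 and 4 of the 1 µM group. It was 0.0514 in limma without the 6 libraries of the table whose FPKM summed to under 350000. The log2 difference stayed between 1.61 and 2.13 over the 20 fits that each left out 1 library. The comparison at 1 µM called 1 of the 6 members that entered the test, against 1.87% of all genes, or 0.646% in the direction of a rise. At an unadjusted limma p under 0.05 it held 2 members, UGT1A1 and UGT1A3, and 13.6% of genes. UGT1A1 had no overlap with Control there, which held in the same direction for 0.707% of genes.

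UGT1A3 had its highest values at the upper concentrations too, at a level far below that of UGT1A1. Its Control values were 1.45, 2.16, 1.81, 0.613 and 0.731 FPKM. At 10 nM they were 4.81, 4.37, 1.64, 4.43 and 3.06, and at 1 µM 1.47, 4.44, 3.67, 3.89 and 2.95. In each of these groups 4 of 5 libraries lay above the highest Control. The mean was 3.66 ± 1.31 at 10 nM and 3.29 ± 1.15 at 1 µM. At 100 pM it was 2.22 ± 0.204, with 3 of 5 libraries above Control. The log2(FPKM + 1) differences were 0.50, 0.98 and 0.86 from the lowest to the highest concentration, with 95% intervals of -0.05 to 1.05, 0.43 to 1.53 and 0.31 to 1.42. None passed in limma with Benjamini-Hochberg adjustment (adjusted p = 1, 0.212 and 0.102). Scaling the libraries changed this: the median change of all genes at 1 µM was -0.26 on the log2 scale without scaling and -0.01 after quantile normalization, and the adjusted p of UGT1A3 at 1 µM in limma was then 3.33e-05. Over all genes the calls at 1 µM were 63 higher and 119 lower without scaling and 532 higher and 553 lower after quantile normalization. For UGT1A3 it was 0.0270 with 75th-percentile scaling, 0.0291 without replicate 1 of the 1 µM group and 0.00709 without the libraries of low FPKM sum. At 10 nM it was 0.0327 without replicate 3 of that group.

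At 10 nM no member was called by limma with Benjamini-Hochberg adjustment, against 0.205% of all genes; 2 members, UGT1A1 and UGT1A3, had an unadjusted p under 0.05, as did 4.85% of all genes. At 100 pM the limma counts were 0 members called and 0 at the unadjusted level, against 0% and 1.19% of genes. The tested members had a median log2 difference of 0.27, 0.26 and 0.29 at the 3 concentrations, and all genes tested one of 0.07, -0.21 and -0.26. Of the 9 members, 6 passed the filter on variance in this table; UGT1A7, UGT1A8 and UGT1A10 did not and were not tested. Comparisons of neighbouring concentrations called 0 members and 0% of genes in limma, and 0 members had an unadjusted p under 0.05, against 5.72% of genes between 100 pM and 10 nM and 3.32% between 10 nM and 1 µM.

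UGT1A6, the leading gene in Control, had nearly the same total at every PCB 126 concentration. Its Control values were 107, 77.5, 54.9, 155 and 82.8 FPKM, and those at 1 µM were 125, 86.2, 39.8, 99.7 and 133. The ranges overlapped almost fully, and the log2 differences were 0.01, -0.06 and -0.01 from the lowest to the highest concentration (SE 0.40). With quantile normalization the last was 0.20. UGT1A9 had 54.1, 70.0, 51.8, 34.6 and 26.8 in Control and 23.3, 58.6, 53.7, 83.5 and 19.9 at 1 µM, with log2 differences of 0.53, 0.42 and -0.11 (SE 0.48), the last of which turned to 0.07 with quantile normalization and 0.39 with a library-size term. Its mean of 85.6 ± 93.3 at 10 nM was carried by replicate 4 at 251, with the other 4 libraries between 26.4 and 65.4.

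The remaining members stayed low. UGT1A4 had 7.86, 2.67, 9.34, 2.09 and 0.275 FPKM in Control and 1.90, 17.5, 5.18, 6.38 and 3.15 at 1 µM, a log2 difference of 0.59 (SE 0.49; limma adjusted p = 0.583), and the ranges overlapped. Most of the UGT1A4 mean came from ENST00000450233, a form annotated for nonsense-mediated decay, with 2.67 FPKM in Control and 4.73 at 1 µM. The protein-coding form, ENST00000373409, had 1.77 and 2.10, and was at 0 in all libraries at 10 nM. UGT1A5 had a mean of 0.658, 0.602 and 0.635 from 100 pM to 1 µM, and its log2 differences of -0.30, -0.36 and -0.35 (SE 0.36) reflect a Control mean that rests on 1 library. UGT1A7 had means of 1.23, 1.34 and 1.59 FPKM, against 0.896 in Control. UGT1A8, with 1.06, 1.11 and 0.675, and UGT1A10, with 0.218, 0.295 and 0.098, showed no order of concentrations. Both were highest in replicate 4 at 10 nM, at 3.05 and 0.930, the library in which UGT1A9 was highest. Over the 40 libraries, log2(FPKM + 1) of UGT1A8 and UGT1A9 correlated with a Pearson r of 0.83, and UGT1A10 and UGT1A9 with 0.77. UGT1A8 was 0.725 to 2.92% of UGT1A9 in every library and UGT1A10 was 0.117 to 0.95%. The 3 genes share near-identical first exons, so whether their low values are RNA of their own or read pairs of UGT1A9 was not tested.

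Single transcripts divided these totals further. Of the 20 transcripts, 17 were above 0 in some library and 10 passed the filter. None was called in limma with Benjamini-Hochberg adjustment at any concentration, where 0.00472% of the 21181 transcripts tested were called at 100 pM and 0.0614% at 10 nM, and 0.552% (0.307% higher) at 1 µM. The F-test called none, against 0.364% of transcripts. An unadjusted limma p under 0.05 was reached by 1 of the 10 at 100 pM, 4 at 10 nM and 4 at 1 µM, against 3.71%, 4.81% and 9.71% of all transcripts. UGT1A1 has a pair of forms that both lay above Control in every 1 µM library. ENST00000305208, with exons 2 to 5, had 23.7 to 90.7 FPKM in Control and 96.1 to 344 at 1 µM, a log2 difference of 1.94 (SE 0.58; limma adjusted p = 0.192). ENST00000360418, with the alternative last exon, had 4.30 to 10.3 and 14.5 to 31.4, a difference of 1.29 (SE 0.37; limma adjusted p = 0.175). No overlap in this direction held for 0.642% of transcripts. The UGT1A3 transcript ENST00000482026 carries the whole value of its gene, and its limma adjusted p at 1 µM was 0.307. Of its 2431 annotated bases, only 538 are in no other UGT1A gene. ENST00000478062, a transcript with the name of UGT1A6, ends inside the UGT1A3 first exon and shares bases with it. ENST00000478062 had 5.12 and 3.30 FPKM in Control replicates 1 and 4 and 0 in every library at 10 nM and 1 µM. How read pairs were divided between these transcripts was not tested.

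UGT1A6 held forms whose differences had opposite signs. The form with the full first exon, ENST00000305139, had 94.4, 57.6, 47.2, 139 and 74.5 FPKM in Control and 116, 57.1, 9.47, 52.0 and 115 at 1 µM. ENST00000406651, a form of 785 bases that starts inside this first exon and ends in the alternative last exon, had 6.26, 18, 6.81, 12.5 and 7.89 in Control and 8.90, 27.3, 26.3, 46.3 and 16.4 at 1 µM. The former was lower by 0.54 on average (log2 difference -0.54, SE 0.65; limma adjusted p = 0.781) and the latter higher (1.12, SE 0.51; limma adjusted p = 0.487), and the ranges overlapped in both. The short form shares 440 of its bases with exons 2 to 4 of every member and 171 with the last exon of ENST00000360418. Its other 174 bases, within the first exon, are in no other UGT1A gene, but ENST00000305139 holds them too. Its share of UGT1A6 ran from 5.86 to 23.2% in Control and from 7.12 to 66.2% at 1 µM. Shares as high were also found with the herbicide, where the range was 8.47 to 66.9% for glyphosate at 10 µg/L and 8.40 to 71.8% at 0.1 g/L. How read pairs of the shared exons were divided was not tested.

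A transcript of UGT1A6 with none of the shared exons gives a reading that does not rest on them. ENST00000480628 begins at the upstream start of UGT1A6, the one whose window holds a core, and was chosen after its values were seen. Its first exon, at this start, has 119 of its 1848 bases, so most of its length lies further downstream. Of its bases, 1729 are in no other UGT1A gene, but those of its first exon also lie in the UGT1A7 transcript ENST00000485022. Its values therefore do not by themselves read the use of that start. ENST00000480628 is annotated without a defined coding sequence and ends at chr2:233756351, before the UGT1A1 start. Its FPKM were 0.827, 0.948, 0.690, 0.356 and 0.216 in Control, 0.994, 1.14, 1.79, 0.993 and 1.41 at 100 pM, 1.36, 1.48, 0.859, 2.11 and 0.740 at 10 nM, and 0.381, 1.26, 2.62, 1.24 and 1.37 at 1 µM. All 5 libraries at 100 pM, 3 at 10 nM and 4 at 1 µM lay above the highest Control, and at 100 pM 0.302% of the tested transcripts had no overlap in this direction. The transcript was under the filter on variance and was not tested. The means of the herbicide groups were 0.751 to 0.946, against 0.608 in Control. In these groups 3 of 5 libraries with glyphosate at 0.1 g/L and 2 of 5 in each of the others also lay above the highest Control. Most of the UGT1A7 value also came from a transcript without these exons, ENST00000485022, with means of 0.731 in Control and 1.05, 1.13 and 1.05 in the PCB 126 groups, all overlapping Control.

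The other forms that passed the filter were ENST00000354728 of UGT1A9 (log2 difference -0.11 at 1 µM, SE 0.53), ENST00000373414 of UGT1A5 (-0.35, SE 0.40), ENST00000373409 and ENST00000450233 of UGT1A4 (-0.08, SE 0.64, and 0.74, SE 0.43) and ENST00000478062 of UGT1A6 (-0.94, SE 0.56). The last was listed at 0 in all libraries at 10 nM and 1 µM and at 0 in most Control libraries.

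The sum over the 9 members depends less on how read pairs were divided between them, though not wholly, since FPKM is per length and the transcripts differ in length. It was 253.5, 257, 204, 238 and 139.5 FPKM in Control and 264, 454, 368, 573 and 343 at 1 µM, with no overlap. The means were 218 and 400.2, a difference of 0.86 on the log2 scale (2-sided exact permutation test, p = 0.00794, the smallest that 252 splits allow, and 0.0556 adjusted over the 7 comparisons with Control). A lone comparison at this smallest p cannot pass 0.05 after adjustment over 7. With the unnamed transcripts of the locus included, the groups overlapped: the lowest library at 1 µM had 271 and the highest Control 275.5, and 4 of 5 lay above it. At 10 nM the sums were 495, 499, 203, 454 and 315.0, with 1 library at the level of Control (difference 0.80; exact permutation p = 0.0476, adjusted 0.111). This p was 0.00794 without replicate 3 of the 10 nM group and 0.0556 to 0.0794 without any other of the 10 libraries. At 100 pM they were 275, 279, 268, 256 and 450.0, 4 of them above the highest Control (difference 0.48; exact permutation p = 0.0159, adjusted 0.0556), and without replicate 5 of that group the difference was 0.33 (exact permutation p = 0.0714). The sum of the FPKM of all transcripts of a library ran from 255292 to 513059, and of the 6 libraries of the PCB 126 table under 350000, 10 nM held 3, 1 µM 2 and Control 1.

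**Figure D3:**
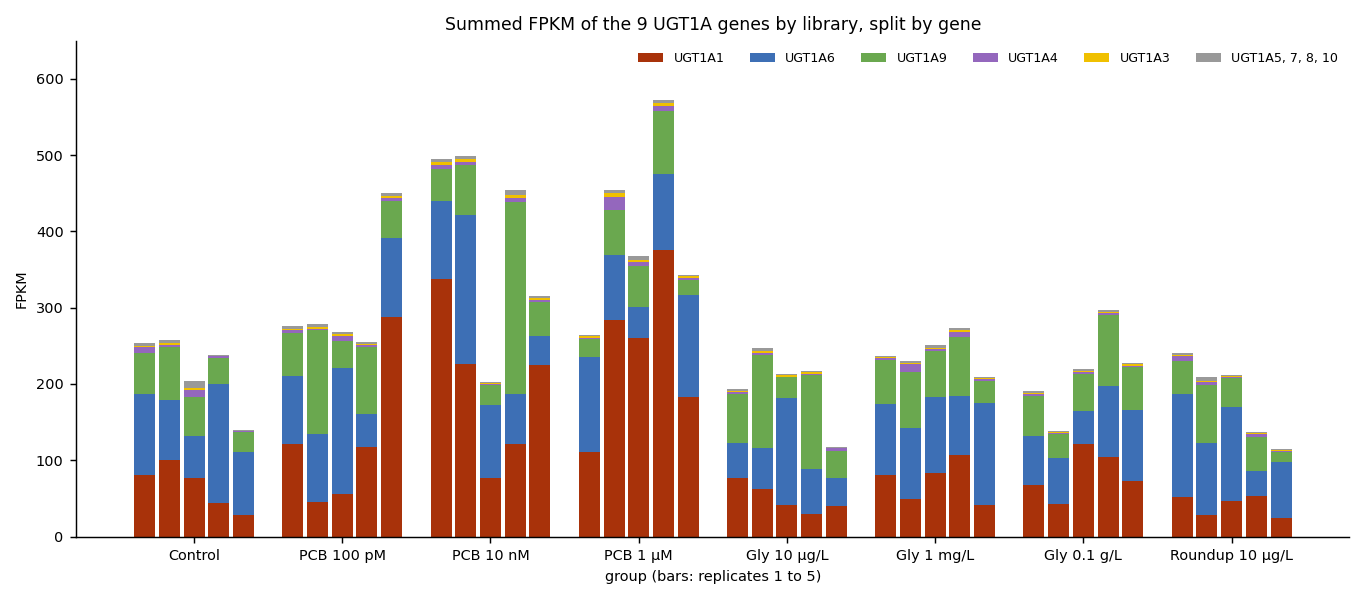
FPKM summed over the 9 UGT1A genes in each of the 40 libraries, with bars that start at 0 and are divided by gene. The bars of the 1 µM PCB 126 group, 264 to 573, stand above those of Control, 139.5 to 257, and the UGT1A1 part differs most between them.

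The share of UGT1A1 in the sum did not overlap with Control at 1 µM, though no comparison of shares passed after adjustment. It was 29.4% ± 9.65 (SD, n = 5) in Control, and 38.2% ± 19.6, 49.9% ± 19.4 and 58.8% ± 11.4 in the groups from 100 pM to 1 µM. The Control shares ended at 39.2% and those at 1 µM began at 42%, so the groups did not overlap (2-sided exact permutation test, p = 0.00794, adjusted over 7 comparisons 0.0556). At the lower concentrations the exact permutation p was 0.389 and 0.0714, and without replicate 4 of the 10 nM group, the library with the most UGT1A9, the latter was 0.0159. UGT1A9 had 21.5% in Control and 11.3% at 1 µM (exact permutation p = 0.0238, adjusted 0.167), and UGT1A6 had 44.7% and 26.7% (exact permutation p = 0.119). A share does not change with the scaling of a library, and since shares add up to the whole, a higher share of one member lowers the others.

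Other genes of glucuronidation and of the AhR response were read from fixed lists. At 1 µM, limma with Benjamini-Hochberg adjustment called 5 of the 6 AhR battery genes tested, all higher: CYP1A1 by 6.61 on the log2 scale, CYP1A2 by 6.16 and CYP1B1 by 2.51, all monooxygenases, TIPARP, a repressor of AhR, by 3.21, and ALDH3A1, an aldehyde dehydrogenase, by 1.93. AHRR, another repressor of the receptor, had a difference of 0.21. Of all genes, 0.646% were called higher at 1 µM. The same 5 AhR battery genes rose at 10 nM, CYP1A1 by 6.80 and TIPARP by 2.32, where 0.205% of all genes were called. With 100 pM, limma called 0 of the 6 battery genes tested and 0% of all genes. All 6 differences were positive there, with a median of 1.02 against 0.07 over all genes. Of the 6, 4 had an unadjusted limma p under 0.05, against 1.19% of all genes. CYP1A1 had a mean of 2.33 FPKM in Control (0 to 7.69) and of 86.2, 268 and 235 from 100 pM to 1 µM. At 100 pM the mean rests on 1 library at 319, where the median was 36.4 and the lowest 1.09. TIPARP went from 4.58 to 8.62, 30.7 and 53.3, and UGT1A1 differed from both in starting from a high Control level.

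Of 8 genes tested in the UGT2 and other UGT families, 0 rose and 2 fell at 1 µM by limma after Benjamini-Hochberg adjustment, where 1.22% of all genes fell: UGT2A3 by 1.20 (log2 difference -1.20) and UGT2B11 by 1.70 (-1.70), with adjusted p-values of 0.0136 and 0.0043. UGT2B7, which conjugates morphine and steroids, had a difference of -0.95 (limma adjusted p = 0.312). Of 5 genes for UDP-glucuronic acid supply and removal of the conjugate, 0 were called, with a median of -0.81 against -0.26 over all genes. Of these 5 genes, 2 had an unadjusted limma p under 0.05, as did 13.6% of all genes. UGDH, which makes UDP-glucuronic acid, had a difference of -0.83 (limma adjusted p = 0.202). Of 5 genes for bilirubin and conjugate handling, 1 fell in limma, the uptake transporter SLCO1B1 (-1.74, adjusted p = 0.0108), while ABCC2, the export pump of bilirubin glucuronide, had -0.25. Of 9 regulators 6 entered the test, and 0 were called by limma at any concentration and 0 had an unadjusted p under 0.05 at 1 µM: AHR had -0.71, HNF4A 0.41 and NFE2L2, which encodes NRF2, 0.18. NR1I3, the constitutive androstane receptor, was under the filter on variance and was not tested. Its mean was 0.400 FPKM in Control, 0.759 at 10 nM and 0.795 at 1 µM, and at both concentrations 4 of 5 libraries lay above the highest Control. These means are under 1 FPKM, and how often genes at such a level show this pattern was not tested.

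**Figure D4:**
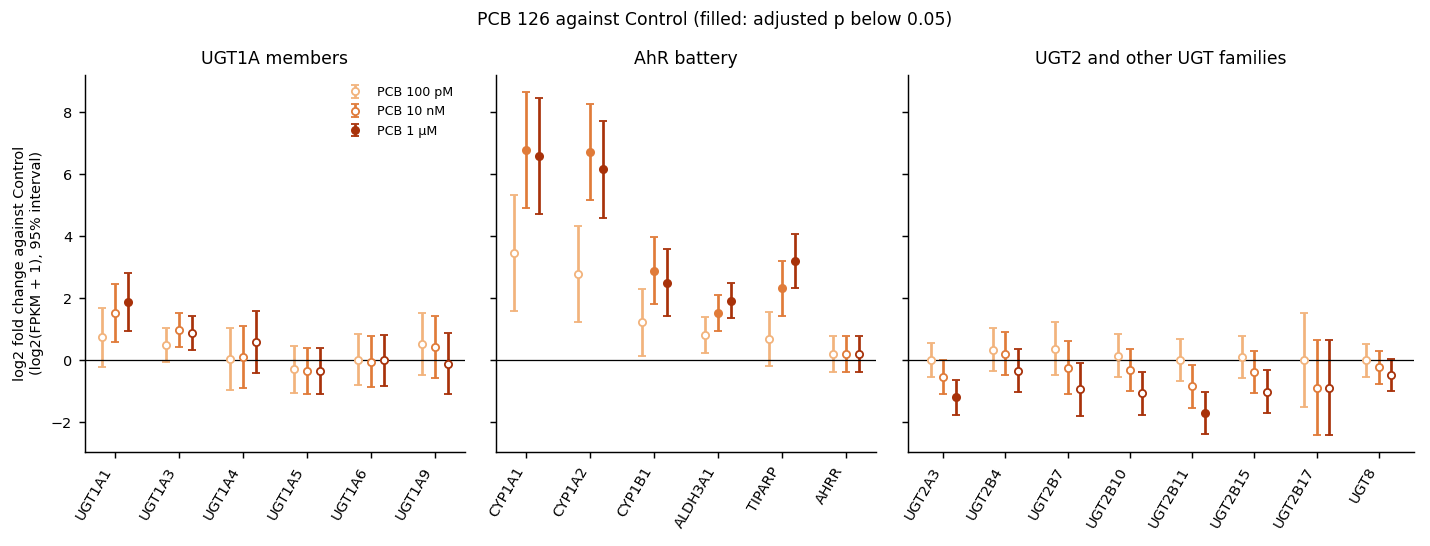
Log2 difference from Control with its 95% interval at the 3 PCB 126 concentrations, in panels for the tested UGT1A members, the AhR battery and the UGT2 and other UGT genes, with filled points past the limma threshold. At 1 µM the filled points are UGT1A1 at 1.88, 5 AhR battery genes between 1.93 and 6.61, and UGT2A3 and UGT2B11 below 0.

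Cell type markers moved at 1 µM, and their mean sums were also lower at 10 nM, where the ranges overlapped Control. From Control to 10 nM these means fell from 17243 to 13478 (hepatocyte), 360 to 211 (biliary) and 16.7 to 7.03 (stromal and blood). At 10 nM limma called 1 of 3 tested stromal and blood markers, lower, against 0.205% of all genes. An unadjusted limma p under 0.05 held at 1 µM for 4 of 6 hepatocyte and 3 of 3 tested biliary markers. The share of all genes was 13.6%. The 6 hepatocyte markers, each above 1 FPKM in some library of every group, summed to 13248 to 19372 FPKM in Control and 5412 to 13251 at 1 µM, and TTR fell by 1.62 (log2 difference -1.62) in limma. ALB makes up most of this sum, and CYP3A4, the one marker with a positive difference, had a mean of 3.08 in Control and 4.22 at 1 µM. Of the 5 biliary markers, 3 were above 1 FPKM in some Control library, EPCAM was at 0 in 4 of 5 and KRT7 stayed under 1. Their sum was 224 to 452 in Control and 122 to 215 at 1 µM. The 6 markers of stromal and blood cells summed to 8.70 to 21.4 in Control and 1.53 to 3.93 at 1 µM, with COL3A1 down by 3.07 (log2 difference -3.07, called in limma) and PTPRC at 0 in 2 of 5 Control libraries. Of the endothelial markers, both far lower, VWF had a mean of 0.0321 in Control and 0.0987 at 1 µM, where 4 of 5 libraries lay above the highest Control, and PECAM1 had 0.179 and 0.284, and neither was tested. The part of these shifts in the UGT1A values was not tested. In such bulk cultures, fewer cells of a type and less RNA per cell cannot be told apart.

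No member passed the test with the herbicides. UGT1A1 had 76.5, 62.4, 41.5, 30.0 and 40.2 FPKM with glyphosate at 10 µg/L, 81.2, 48.6, 83.3, 107 and 41.3 at 1 mg/L, and 67.6, 42.6, 122, 104 and 73.2 at 0.1 g/L. With Roundup it had 52.2, 27.8, 46.8, 53.3 and 23.7. All 4 groups overlapped Control. In limma on log2(FPKM + 1) the differences were -0.33, 0.18, 0.35 and -0.62 (SE 0.35), and the 95% interval for Roundup was -1.33 to 0.09. UGT1A6 had differences of -0.59, 0.12, -0.39 and -0.13 in the same order, UGT1A9 0.46, 0.33, 0.23 and -0.24, UGT1A4 -0.43, 0.23, -0.58 and -0.17, and UGT1A5 -0.41, -0.39, -0.45 and -0.49. Of the 5 members that passed the filter in this table, limma with Benjamini-Hochberg adjustment called 0 in every comparison and 0 had an unadjusted p under 0.05. Over all 9533 genes it called 0%, and an unadjusted p under 0.05 was reached by 0.997%, 1.31%, 0.881% and 1.73% of genes in the same order of groups. UGT1A3, not tested here, had means of 1.48 to 1.82 FPKM, UGT1A7 of 0.829 to 1.05, UGT1A8 of 0.599 to 0.811 and UGT1A10 of 0.161 to 0.204.

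The sum over the 9 members was 198, 240.2 and 215 FPKM with glyphosate from the lowest to the highest dose and 183 with Roundup, against 218 in Control. The exact permutation p-values, 2-sided, were 0.532, 0.476, 0.889 and 0.262, and all groups overlapped Control. Of the 9 transcripts that passed the filter in the glyphosate table, limma called 0 in any herbicide comparison, and the same was true of 0% of all transcripts.

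**Figure D5:**
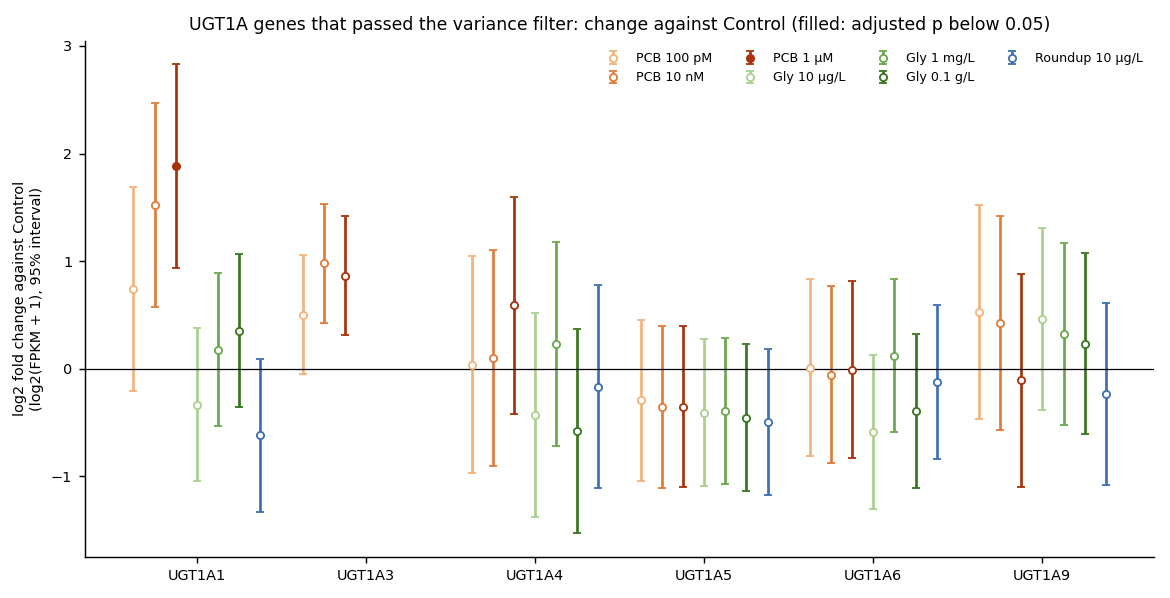
Difference from Control on the log2(FPKM + 1) scale with its 95% interval for the UGT1A genes that passed the filter in the 7 treated groups, from the limma fits, with filled points past the threshold (UGT1A3 was tested with PCB 126 only). The intervals of UGT1A1 and UGT1A3 at 10 nM and 1 µM lie above 0, and those of the herbicide groups include 0.

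Roundup and glyphosate were compared at the same 10 µg/L, a formulated product against its active ingredient. On the log2(FPKM + 1) scale Roundup minus glyphosate was -0.29 for UGT1A1 (95% interval -1.0 to 0.43), 0.26 for UGT1A4 (-0.68 to 1.21), -0.09 for UGT1A5 (-0.77 to 0.59), 0.46 for UGT1A6 (-0.25 to 1.18) and -0.70 for UGT1A9 (-1.54 to 0.15). The limma adjusted p was 0.974 for each of these 5, with 0 called and 0 at an unadjusted p under 0.05, against 0% and 1.27% of genes. Intervals of this width leave room for a change by more than 1 on the log2 scale in either direction for some members, so the values do not show that the preparations act alike.

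PCB 126 at 1 µM and glyphosate at 0.1 g/L, the highest dose of each agent, were set side by side without Control, since both comparisons with Control share its libraries. UGT1A1 was at 242.6 FPKM with PCB 126 and 81.9 with glyphosate, a log2 difference of 1.53 (2-sided exact permutation test, p = 0.0159, adjusted over 10 tests 0.0794). UGT1A3 was at 3.29 and 1.58 (0.69, exact permutation p = 0.0317) and UGT1A4 at 6.82 and 1.86 (1.17, exact permutation p = 0.0317), both with an adjusted value of 0.0794. With glyphosate the UGT1A4 value came wholly from ENST00000450233, annotated for nonsense-mediated decay, which had 4.73 with PCB 126. The sum was 400.2 against 215 (0.89, exact permutation p = 0.0159, adjusted 0.0794). The groups overlapped in each of these, and the other 6 members had an exact permutation p of 0.167 or more.

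Genes whose level followed a member most closely were sought among 9255 genes over all 40 libraries, as a description. For UGT1A1 they were CYB561A3 (Pearson r of log2(FPKM + 1) 0.88), DEPTOR (0.87) and TIPARP (0.87). For UGT1A3 they were UGCG (0.90), which makes glucosylceramide, MCCC1 (0.90) and TMEM138 (0.89). For UGT1A9 they were XPNPEP3 (0.82) and NBPF1 (0.81), and the first fell to 0.66 with 75th-percentile scaling. For UGT1A4 and UGT1A5 the leading r was 0.68 (PLA2G4C) and 0.64 (DNM2), followed by FAM114A1 and DPP9 and by VPS41 and PSME4. UGT1A6 reached only 0.48 (RFX1), 0.47 (USE1) and 0.47 (ANKRD52). UGT1A1 and UGT1A3 correlated with each other at 0.77. The libraries share treatment and unequal FPKM sums, which enter each of these values.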

How the data were processed

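Libraries were directional and depleted of rRNA. The authors placed the read pairs on GRCh38 (HISAT2), built and quantified the transcripts of each library (StringTie, Ensembl annotation) and deposited FPKM for 234960 transcripts per library in 2 tables. Tool versions are not given in the sources used here. No scaling between libraries was applied by the authors, and no replicates were pooled. Some columns that the authors deposited were taken as a score, since they are FPKM made in the same way but hold a few values just below 0 (4 in the PCB 126 table, 6 in the glyphosate table), which were set to 0. Columns of no sample numbered 0. FPKM are not counts: read depth is not used here, no interval for counting error is given, and no count test was run. Whether strand was used in counting is not given in the sources used here.

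FPKM were summed per gene name and tested with limma 3.58.1 (lmFit, eBayes) in R 4.3.3 on log2(FPKM + 1), for genes or transcripts with a variance of FPKM above 1, all groups of a table in 1 fit, with Benjamini-Hochberg adjustment and a threshold of 0.05. Sums, shares and the comparison of agents used 2-sided exact permutation tests. The fit was tested on simulated data. Exons came from GENCODE v44 and promoters from RefSeq. Python 3.11.15, numpy 2.4.6, pandas 2.3.3 and matplotlib 3.10.9 were used for all else.

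The members, lists and tests were chosen with earlier results of these data known. All 9 members are named, and transcripts where they pass the filter; list genes are named where they pass the threshold or are markers, plus examples of regulators and enzymes chosen for their role, and for each tested member the 3 genes with the highest correlation, of which 1 is not reported here. Groups came from the labels. Replicates were numbered by run of library number, as given in the sample titles. Each run held every group, and no label ties equal numbers to a culture or day. Alternatives were a pseudocount of 0.1, no filter, 75th-percentile scaling, quantile normalization, a linear model with a library-size term, array weights, fits of 2 groups, the most abundant transcript of a gene, a replicate block, and leaving out each library. Leaving out the libraries whose FPKM summed to under 350000 was chosen after seeing the data.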

Additional observations from a re-analysis of the deposited data

Results flagged for a closer look

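Within groups of 5 libraries, the distance of the most extreme library to the nearest other was divided by the range of the group. This ratio was compared with Dixon's critical value of 0.71 for the 9 members and their sum. Of the 80 groups of values tested, 10 had a ratio above it. Chance alone marks about 1 in 20 for independent values with a normal distribution. FPKM were not log-transformed here, some members correlate and the sum contains them, so the 10 are not to be read as an excess. UGT1A4 was at 17.5 FPKM in replicate 2 of the 1 µM PCB 126 group, where the next library had 6.38. UGT1A5 was at 6.99 in Control replicate 3, where the next had 1.05, and its mean in Control rests on this library. UGT1A6 was at 140.5 in replicate 3 of glyphosate at 10 µg/L, next to 58.6. UGT1A9 was at 251 in replicate 4 of the 10 nM PCB 126 group, next to 65.4. In the same library UGT1A8 was at 3.05, next to 1.05, and UGT1A10 at 0.930, next to 0.201. Replicate 2 of Roundup had UGT1A8 at 2.22, next to 0.560, and UGT1A10 at 0.523, next to 0.132. UGT1A10 was also at 0.456 in replicate 3 of glyphosate at 0.1 g/L, next to 0.190. The sum over the members was 450.0 in replicate 5 of the 100 pM PCB 126 group, next to 279, and UGT1A1, at 287, made up most of it.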

How the results depend on the processing

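No called result changed direction in any alternative, while differences near 0 that passed no test did, such as those of UGT1A6 and UGT1A9 at 1 µM. Over all genes, 20 were called at 10 nM (14 to 239 under the alternatives) and 182 at 1 µM (129 to 1085, or 118 to 366 without 1 library). At 1 µM PCB 126, 1 member was called, against 0 with a pseudocount of 0.1 (limma adjusted p of UGT1A1 0.0606), no filter (0.164) or the most abundant transcript (0.105), and 2 with 75th-percentile scaling, quantile normalization, the library-size term or array weights. At 10 nM, where 0 members were called, these last alternatives gave 1, 2, 1 and 2, and leaving out libraries of low FPKM sum gave 1. At 10 nM against 100 pM, quantile normalization called 1 and array weights 2. The F-test over the PCB 126 groups called 0 members, and 1, 2, 1 and 2 under the same 4 alternatives, and 1 without libraries of low sum. For transcripts, where 0 were called, quantile normalization and the library-size term each gave 2 at 10 nM, 2 at 1 µM and 2 in the F-test, array weights 1 at 1 µM and 1 in the F-test, and leaving out libraries of low sum 1 at 1 µM. In the glyphosate table array weights, a fit with a convergence warning, called 2 members for Roundup against Control, 2 for Roundup against glyphosate and 4 in the F-test, against 0; the cause was not tested. The difference of the summed FPKM was 0.59 at 100 pM with 75th-percentile scaling (exact permutation p = 0.0556), and at 10 nM 0.79 for the whole assembled locus (exact permutation p = 0.0556) and 1.00 without libraries of low sum (exact permutation p = 0.0667). Leaving out 1 library at a time called 0 to 1 members at 10 nM, 0 to 2 at 1 µM and 0 to 1 in the F-test. It moved the difference of the sum between 0.33 and 0.55 at 100 pM, 0.65 and 1.02 at 10 nM and 0.70 and 0.99 at 1 µM, and that of the UGT1A1 share between 15.1 and 26.3 percentage points at 10 nM. With the replicate block, 1 member stayed called at 1 µM (limma adjusted p of UGT1A1 0.0416). The exact sign-flip test within the block gave, for the sum, a difference of 0.48 at 100 pM with an exact p of 0.0625, one of 0.80 at 10 nM with 0.125 and one of 0.86 at 1 µM with 0.0625, where 0.0625 is the smallest p it can give. Libraries with equal numbers correlated at -0.05 to 0.17 in the PCB 126 table and -0.01 to 0.18 in the glyphosate table, and 9 of 15 and 14 of 20 treated libraries correlated best with the Control of their own number. Each treated library had 5 Control libraries to match, so matches with the own number were more frequent than numbers without meaning would give. The rule used asked for every correlation to be over 0.1, so the main tests are unpaired. This rule does not settle whether libraries of a run share an origin. Over all alternatives other than leaving out 1 library, 193 of 224 counts of calls stayed the same. Of the permutation tests, 159 of 170 stayed on their side of an unadjusted p of 0.05, not of the adjusted p. They include the sign-flip tests, which cannot reach that level. The shared exons limit what can be said of single low members, and read counts were not used here.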
